A study of Mus musculus with 10 samples.

Results

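Branched-chain amino acid catabolism was followed through 10 genes in tumor cells sorted from mice fed a high-fat diet or a control diet. The genes were Bcat1, Bcat2, Bckdha, Bckdhb, Dbt, Bckdk, Ivd, Mccc1, Mccc2 and Hibadh, chosen by name as enzymes of the pathway and their kinase, and all 10 were found among the 53379 genes of the count table. The libraries came from MC38, a transplantable colon carcinoma line of C57BL/6 origin, recovered on day 21 after implantation into C57BL/6J mice. Tumor cells were sorted as dTomato-positive and CD45-negative, and each mouse gave 1 library of polyadenylated RNA. There were 5 high-fat-diet mice and 5 control-diet mice, and both groups carried the same labelled tumor line; whether it was 1 clone was not stated. The diets' composition, the time on diet and the animals' age and sex were not given in the sources used here.

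Leucine, isoleucine and valine are broken down by one shared entry route. An aminotransferase, cytosolic (Bcat1) or mitochondrial (Bcat2), moves their amino group to alpha-ketoglutarate and leaves a branched-chain keto acid. The branched-chain keto acid dehydrogenase complex, built from Bckdha, Bckdhb, Dbt and the shared subunit Dld, then commits the carbon to oxidation, and it is switched off when the kinase Bckdk phosphorylates Bckdha and on again by the phosphatase Ppm1k. After that step the routes part, with Ivd, Mccc1 and Mccc2 acting on leucine and Hibadh on valine. In many tumors Bcat1 is the abundant aminotransferase and is a known target of MYC.

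None of the 10 genes passed the test between the diets. Counts were compared in edgeR by its quasi-likelihood F test, with p-values adjusted for the 14337 genes tested by the Benjamini-Hochberg method. At an adjusted p under 0.05 there were 0 of 10, against 9 of all genes tested (0.0628%), of which 6 were higher (0.0418%) and 3 lower (0.0209%) in high-fat mice. At an unadjusted p under 0.05 the count was also 0 of 10, against 12.1% of all genes tested. DESeq2 and limma-voom likewise gave 0 of 10 at either threshold, with adjusted calls in 2.29% of all genes in DESeq2 and 0.0349% in limma-voom. With a macrophage covariate, or without control mice 3 and 4, the adjusted count was again 0 of 10, against 1.58% and 1.89% of all genes. The edgeR unadjusted p of Bcat1 was under 0.05 in both of these fits. It was so too without control mouse 3 and without high-fat mouse 5, in all 4 of 21 alternative fits. For Bcat1, control mice 3 and 4 were the lowest controls and high-fat mouse 5 the highest of its diet. Leaving any of them out had to widen the difference, so no diet effect is drawn from those fits. For all 10 genes the mice of the diets overlapped, while the groups did not overlap for 2.18% of all genes. Of the 10 log2 changes (high-fat minus control), 6 were positive and 4 negative, where 51.4% of all genes tested were positive. Their median was 0.03 against 0.01 over all genes tested, and the farthest from 0 was that of Bcat1, at -0.22. All 10 passed the filter on low counts. Levels are CPM, a gene's counts relative to its library's total as scaled by the TMM method, and means are given with the SD over 5 mice per diet.

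**Figure D1:**
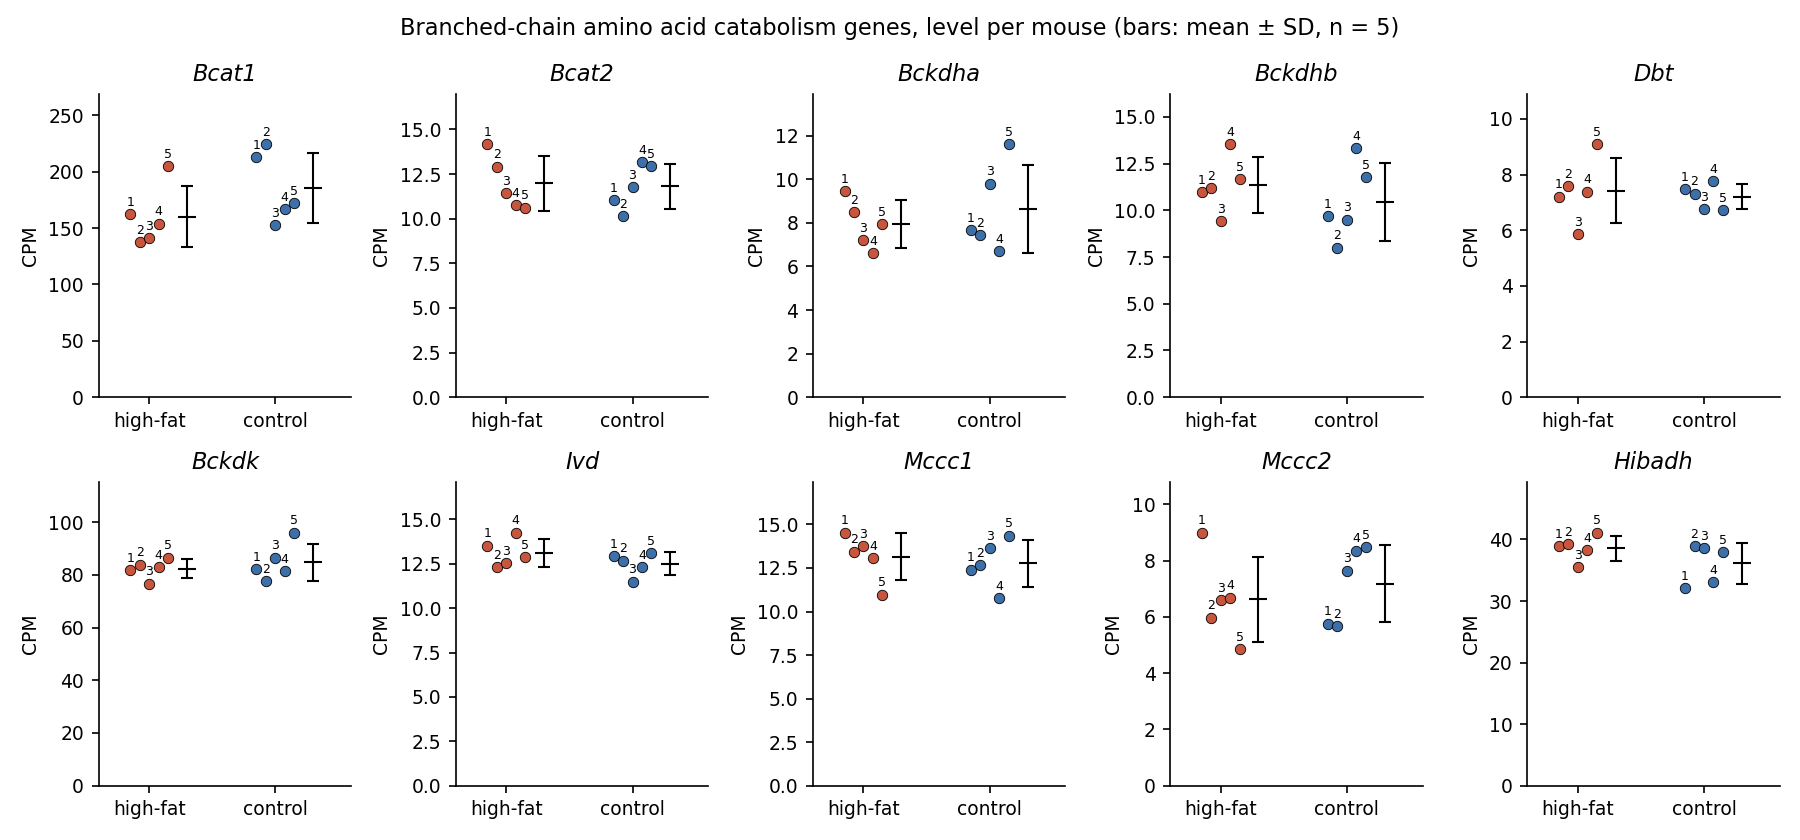
Level of each of the 10 genes in CPM (vertical axes start at 0), 1 point per mouse with the mouse's number, high-fat mice left and control mice right; bars give the mean ± SD of 5 mice. The diets overlap in every panel, and Bcat1 runs from 137 to 225 CPM over the 10 mice.

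High-fat libraries held between 16513388 and 17154050 counts, and control libraries between 17050797 and 18653705. Mitochondrially encoded genes took between 1.40% and 4.36% of the counts in high-fat libraries and between 1.04% and 2.64% in control libraries. The 9 epithelial markers checked (Krt8, Krt18, Krt19, Epcam, Cdh1, Cldn3, Cldn4, Cldn7 and Vil1) summed to between 1.22 and 3.18 CPM in high-fat and between 1.42 and 7.06 CPM in control libraries, so these defining markers of colon epithelium were near 0. The 10 fibroblast genes checked, led by Col3a1, summed to between 6336 and 12502 CPM in high-fat and between 7073 and 11931 CPM in control libraries. That sum was mostly Col3a1, at between 5140 and 10338 CPM in high-fat and between 5479 and 10486 CPM in control libraries. Dcn, Pdgfra, Pdgfrb, Col1a1 and Postn were at 44.2 CPM or more in every library. Acta2 and Fap were at or under 3.29 CPM in every library, and Col1a2 and Lum at or under 38.6 CPM. The 12 macrophage markers summed to between 123 and 167 CPM in high-fat and between 139 and 487 CPM in control libraries, and 11 of 12 had the lower mean on the high-fat diet. Without Mertk, the other 11 summed to between 25.1 and 59.3 CPM in high-fat and between 55.8 and 398 CPM in control libraries. Mertk stood at 79.1 CPM or more in every library and was therefore left out of that sum after its values were seen. The 10 pan-leukocyte markers, Ptprc (CD45) among them, summed to between 15.6 and 60.0 CPM in high-fat and between 21.7 and 223 CPM in control libraries. Of the adipocyte genes, Adipoq, Lep, Plin1, Cidec, Cfd, Retn and Pck1 were at or under 0.122 CPM everywhere, and Retn had no count at all. Pparg was at or under 0.264 CPM. Fabp4, which macrophages and endothelial cells also express, was between 2.99 and 9.11 CPM in high-fat and between 7.16 and 20.3 CPM in control libraries. Lipe was between 4.14 and 5.48 CPM in high-fat and between 3.62 and 5.81 CPM in control libraries. All 10 adipocyte genes summed to between 7.46 and 14.6 CPM in high-fat and between 11.8 and 24.5 CPM in control libraries. The part of these markers in the results was not tested. Some fits take the macrophage level as a covariate. Without Mertk, only control mouse 2 (55.8 CPM) lay within the high-fat range, so such fits cannot tell diet and macrophage content apart.

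The aminotransferases come first in the pathway. Bcat1 (ENSMUSG00000030268.17, GRCm38 chromosome 6, 144993835 to 145076184, minus strand) has 2 RefSeq start sites, and Bcat2 (ENSMUSG00000030826.19, chromosome 7, 45570153 to 45589711, plus strand) has 2 as well. Promoter windows of this pair (both starts of Bcat1, the upstream start of Bcat2) are printed because both enzymes catalyse the same step and Bcat1 was the more abundant per kb in every mouse. Each window runs from 250 bases before to 50 bases after a RefSeq start on GRCm38.p6, 5′ to 3′ on the gene's strand, and capitals mark a TATAAA match.
Bcat1, upstream start, chr6:145076108-145076407, minus strand: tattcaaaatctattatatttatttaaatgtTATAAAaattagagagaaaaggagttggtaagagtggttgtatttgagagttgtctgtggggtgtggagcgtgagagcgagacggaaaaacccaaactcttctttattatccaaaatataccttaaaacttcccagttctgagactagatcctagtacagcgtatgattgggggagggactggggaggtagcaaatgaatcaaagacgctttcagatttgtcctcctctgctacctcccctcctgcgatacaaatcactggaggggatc
Bcat1, downstream start, chr6:145048763-145049062, minus strand: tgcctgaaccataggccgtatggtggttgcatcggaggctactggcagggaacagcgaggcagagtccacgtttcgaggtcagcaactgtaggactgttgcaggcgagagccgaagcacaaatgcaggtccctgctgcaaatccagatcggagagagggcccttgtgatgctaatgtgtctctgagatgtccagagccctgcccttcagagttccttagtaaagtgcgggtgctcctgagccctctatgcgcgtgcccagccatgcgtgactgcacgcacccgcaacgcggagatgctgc
Bcat2, upstream start, chr7:45569903-45570202, plus strand: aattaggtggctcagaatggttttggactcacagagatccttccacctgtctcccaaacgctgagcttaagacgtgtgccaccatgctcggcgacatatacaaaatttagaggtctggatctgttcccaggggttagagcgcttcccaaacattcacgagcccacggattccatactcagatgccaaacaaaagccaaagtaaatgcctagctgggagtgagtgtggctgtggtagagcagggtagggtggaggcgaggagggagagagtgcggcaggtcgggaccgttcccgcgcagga
The upstream Bcat1 window held 6 CpG dinucleotides and a TATAAA match, the downstream Bcat1 window 16 CpG and the upstream Bcat2 window 13, against a median of 7 over 32851 windows. On either strand, TATAAA occurred in 13.6% of all windows, CACGTG (the E-box that MYC and related factors can bind) in 7.15%, GGGCGG (the GC box) in 35.7% and TGATGNAA (an ATF4-type element) in 3.97%. Apart from the TATAAA match, these 4 motifs had no match in the 3 windows shown. The window of the downstream Bcat2 start, chr7:45571029-45571328, held 9 CpG and no match of the 4 motifs, and its sequence is not shown. Among the 12 windows found for 9 of the 10 genes, the E-box letters occurred only in that of Mccc2. The counts are per gene, so transcripts from the 2 starts cannot be told apart.

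Bcat1, the cytosolic aminotransferase, was the gene of the 10 with the most counts, between 2301 and 4233 per library. Its level was 163, 137, 141, 154 and 205 CPM in high-fat mice 1 to 5, against 213, 225, 152, 167 and 172 CPM in control mice 1 to 5. Control mice 1 and 2 and high-fat mouse 5 stood above the others, and high-fat mice 2 and 3 lay below every control. The means were 159.9 ± 27.1 CPM in high-fat and 186 ± 31.2 CPM in control mice, which is a difference of -0.22 on the log2 scale (SE 0.13, 95% interval -0.50 to 0.06, edgeR adjusted p = 0.559). That interval spans 0.709-fold to 1.05-fold. In RNA from a sorted population, fewer cells of a type and less RNA per cell cannot be told apart. With the mean log2 level of the 12 macrophage markers as a covariate the log2 change was -0.44 (edgeR unadjusted p = 0.0270, adjusted p = 0.267), and without high-fat mouse 5 it was -0.32 (edgeR unadjusted p = 0.0158, adjusted p = 0.244). Without control mouse 2 the log2 change was -0.14 (edgeR unadjusted p = 0.303, adjusted p = 0.821), and with library size as a covariate -0.16 (edgeR unadjusted p = 0.398, adjusted p = 0.971). High-fat mouse 5 was the highest of its diet, so leaving it out had to widen the difference. Control mouse 2 was the highest control, so leaving it out had to shrink the difference.

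Bcat2, the mitochondrial enzyme, was at 14.2, 12.9, 11.4, 10.8 and 10.6 CPM in high-fat mice 1 to 5, against 11.0, 10.1, 11.8, 13.2 and 12.9 CPM in control mice 1 to 5. High-fat mouse 1 was the highest and control mouse 2 the lowest, and the means differed by less than the spread within either diet. The log2 change was 0.02 (SE 0.11, 95% interval -0.22 to 0.26, edgeR adjusted p = 0.961). Part of the exon sequence of Bcat2, 15.9%, overlaps the antisense gene 0610005C13Rik, which had between 1 and 7 counts per library.

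Per kilobase of exon, Bcat1 supplied most of the aminotransferase transcript in every mouse. Its share of the summed Bcat1 and Bcat2 level per kb was 82.8%, 81.7%, 83.8%, 85.7% and 89.0% in high-fat mice 1 to 5, against 89.0%, 90.3%, 84.4%, 84.1% and 84.8% in control mice 1 to 5. The share averaged 84.6% ± 2.87 in high-fat and 86.5% ± 2.88 in control mice (SD, n = 5 each), and the diets overlapped. With the longest transcript as the length in place of all exons, the averages were 77.7% ± 3.85 in high-fat and 80.3% ± 3.93 in control mice. This share is a ratio within a library, described without a test.

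Of the dehydrogenase complex, Bckdha, Bckdhb and Dbt were lower than Bcat1 per kb, and the shared subunit Dld, at 31.8 ± 3.24 CPM per kb over all 10 mice, was higher. Bckdhb, the E1 beta subunit (ENSMUSG00000032263.14, chromosome 9, 83925145 to 84124240), was at 11.0, 11.2, 9.40, 13.5 and 11.7 CPM in high-fat mice 1 to 5, against 9.67, 8.01, 9.50, 13.3 and 11.8 CPM in control mice 1 to 5. High-fat mouse 4 and control mouse 4 were the highest of their groups, and the lowest value was that of control mouse 2. On the log2 scale the change was 0.12 (SE 0.14, 95% interval -0.19 to 0.43, edgeR adjusted p = 0.811).

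Bckdha, the E1 alpha subunit that carries the regulatory phosphorylation (ENSMUSG00000060376.7, chromosome 7, 25629946 to 25658981), was at 9.47, 8.48, 7.21, 6.62 and 7.93 CPM in high-fat mice 1 to 5. In control mice 1 to 5 it was at 7.65, 7.43, 9.79, 6.71 and 11.6 CPM. Control mouse 5 stood above the rest, and the log2 change was -0.12 (SE 0.16, 95% interval -0.47 to 0.23, edgeR adjusted p = 0.830). The level of Bckdha is less certain than the others, because 61.7% of its exon sequence overlaps B3gnt8 on the opposite strand and the strand setting of the counting is not given in the sources used here. B3gnt8 itself had between 1 and 14 counts per library, against 112 to 204 for Bckdha. These counts do not settle the level of Bckdha, because how reads in the overlap were counted or dropped is not given.

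Dbt, the E2 core of the complex (ENSMUSG00000000340.10, chromosome 3, 116513070 to 116549981), was at 7.21, 7.59, 5.86, 7.39 and 9.10 CPM in high-fat mice 1 to 5, against 7.48, 7.32, 6.76, 7.76 and 6.72 CPM in control mice 1 to 5. The high-fat mice held both the lowest and the highest value, and the log2 change was 0.04 (SE 0.12, 95% interval -0.22 to 0.31, edgeR adjusted p = 0.927). Dld, the E3 subunit that this complex shares with the pyruvate and alpha-ketoglutarate dehydrogenases, averaged 118 ± 16.3 CPM in high-fat and 116 ± 7.22 CPM in control mice (edgeR adjusted p = 0.939).

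Bckdk, the kinase that switches the complex off (ENSMUSG00000030802.14, chromosome 7, 127904082 to 127910221), was at 81.9, 83.8, 76.7, 82.9 and 86.5 CPM in high-fat mice 1 to 5, against 82.3, 77.6, 86.5, 81.4 and 96.1 CPM in control mice 1 to 5. Apart from control mouse 5 the libraries lay close together, and the SD was 4.37% of the mean in high-fat and 8.32% in control mice. The log2 change was -0.04 (SE 0.07), with the narrowest 95% interval of the 10 genes, -0.19 to 0.11, or 0.875-fold to 1.08-fold (edgeR adjusted p = 0.867).

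Ppm1k, the phosphatase that opposes the kinase, was at 5.12, 3.47, 5.56, 4.67 and 4.96 CPM in high-fat mice 1 to 5, against 3.68, 4.14, 4.02, 4.12 and 3.87 CPM in control mice 1 to 5. High-fat mouse 2 was the lowest of all and the other 4 high-fat mice lay above every control. The log2 change of 0.26 (SE 0.14) did not pass (edgeR unadjusted p = 0.0879, adjusted p = 0.510). These values rest on 58 to 91 counts per library.

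Set against each other per kilobase, the kinase transcript exceeded the mean of Bckdha, Bckdhb and Dbt, and its phosphatase, in every mouse. Dld, which other complexes share, is not in that mean, and its mean level per kb was above that of Bckdk. Bckdk over the mean of Bckdha, Bckdhb and Dbt was 5.29 ± 0.298 in high-fat and 5.54 ± 0.385 in control mice, and without Bckdha, left out after its overlap was seen, it was 5.29 ± 0.489 in high-fat and 5.85 ± 0.764 in control mice. Bckdk over Ppm1k was 29.1 ± 6.32 in high-fat and 34.9 ± 3.84 in control mice, with ranges of 22.5 to 39.4 in high-fat and 30.6 to 40.4 in control mice. The ranges overlapped for each ratio, and no test was run on them.

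**Figure D2:**
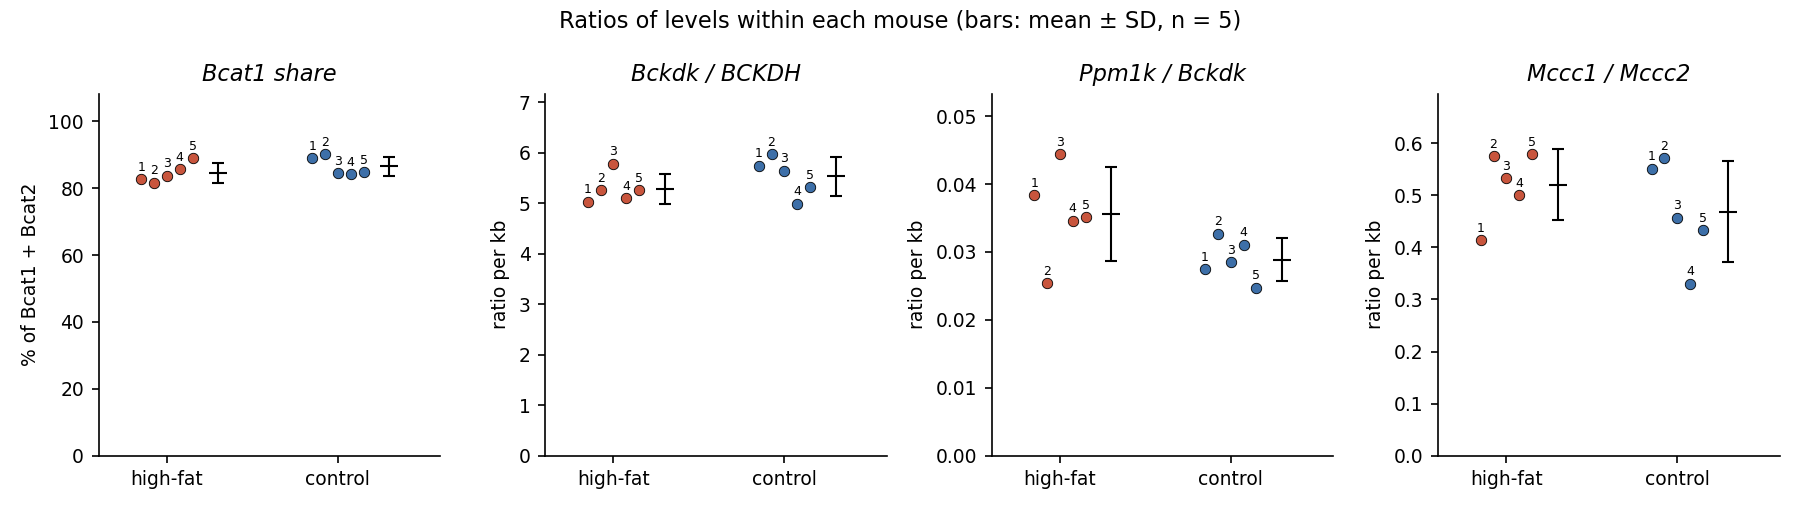
Ratios of levels per kb of exon within each mouse, 1 point per mouse with the mouse's number, high-fat left and control right, bars mean ± SD of 5; from left, the Bcat1 share in percent, Bckdk over the mean of Bckdha, Bckdhb and Dbt (BCKDH), Ppm1k over Bckdk, and Mccc1 over Mccc2. The diets overlap in all 4 panels, with Ppm1k over Bckdk at 0.0356 ± 0.00693 in high-fat and 0.0289 ± 0.00312 in control mice.

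Beyond the dehydrogenase, the leucine enzymes followed. Ivd, isovaleryl-CoA dehydrogenase (ENSMUSG00000027332.11, chromosome 2, 118861954 to 118882909), was at 13.5, 12.3, 12.5, 14.3 and 12.9 CPM in high-fat mice 1 to 5, against 12.9, 12.7, 11.5, 12.3 and 13.1 CPM in control mice 1 to 5. It was the steadiest gene of the 10 over all mice, its highest library being 1.24-fold its lowest. The SDs of 6.06% of the mean in high-fat and 5.12% in control mice did not exceed the 6.72% that counting alone gives. For Ivd the log2 change was 0.07 (SE 0.08, 95% interval -0.11 to 0.24, edgeR adjusted p = 0.812).

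Mccc1 and Mccc2 encode the biotin-bearing alpha and the beta subunit of methylcrotonyl-CoA carboxylase. Mccc1 (ENSMUSG00000027709.9, chromosome 3, 35959312 to 36000678) was at 14.5, 13.4, 13.7, 13.1 and 11.0 CPM in high-fat mice 1 to 5, against 12.4, 12.7, 13.6, 10.8 and 14.3 CPM in control mice 1 to 5. Its lowest libraries were high-fat mouse 5 and control mouse 4, and the log2 change was 0.04 (SE 0.10, 95% interval -0.18 to 0.27, edgeR adjusted p = 0.919).

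Mccc2 (ENSMUSG00000021646.9, chromosome 13, 99948530 to 100015639) was at 8.99, 5.98, 6.60, 6.68 and 4.84 CPM in high-fat mice 1 to 5, against 5.75, 5.68, 7.64, 8.35 and 8.48 CPM in control mice 1 to 5. It was the most variable of the 10, its highest library, that of high-fat mouse 1, being 1.86-fold its lowest, that of high-fat mouse 5. Its SD was 22.9% of the mean in high-fat and 19.1% in control mice, above the 9.14% that counting gives at 83 to 158 counts per library. For Mccc2 the log2 change was -0.12 (SE 0.18, 95% interval -0.50 to 0.26, edgeR adjusted p = 0.849). Mccc1 over Mccc2 per kb was 0.520 ± 0.0681 in high-fat and 0.469 ± 0.0974 in control mice.

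Hibadh, 3-hydroxyisobutyrate dehydrogenase of the valine route (ENSMUSG00000029776.11, chromosome 6, 52546228 to 52640389), was at 38.9, 39.2, 35.5, 38.2 and 41.1 CPM in high-fat mice 1 to 5, against 32.1, 38.9, 38.6, 33.0 and 37.9 CPM in control mice 1 to 5. Control mice 1 and 4 lay below every high-fat mouse, while the other 3 controls lay within the high-fat range. For Hibadh the log2 change was 0.10 (SE 0.08, 95% interval -0.07 to 0.26, edgeR adjusted p = 0.695).

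Between genes, levels were compared as mean CPM per kb of exon over all 10 mice. Bckdk (22.6 ± 1.47) and Bcat1 (18.5 ± 3.30) lay at the 80.5th and 76.4th percentile of all genes tested. They were followed by Bckdhb (6.04 ± 0.982), Bckdha (4.37 ± 0.832), Hibadh (3.67 ± 0.284), Bcat2 (3.05 ± 0.340), Mccc2 (2.46 ± 0.499), Ivd (2.32 ± 0.136), Dbt (2.19 ± 0.249) and Mccc1 (1.18 ± 0.117), the last at the 17.7th percentile. The median of all genes tested was 6.49 CPM per kb, so 8 of the 10 lay below it. Bckdk exceeded Bcat1 in 8 of 10 libraries, Mccc2 exceeded Ivd in 5 and Ivd exceeded Dbt in 7. By exon length these neighbours are not separated, whereas Bcat1 exceeded Bckdhb and Bckdhb exceeded Bckdha in 10 of 10. The place of Bckdha in this order is less certain, because of its exon overlap with B3gnt8. With the longest transcript as the length, Bckdk, Bcat1 and Bckdhb still led and Mccc1 was still last, but Bckdha exceeded Hibadh in 0 of 10 libraries in place of 9. Ivd then exceeded Dbt in 10 in place of 7, Hibadh exceeded Bcat2 in 7 in place of 9 and Dbt exceeded Mccc1 in 8 in place of 10. Which of the lower neighbours are separated thus depends on the length used.

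**Figure D3:**
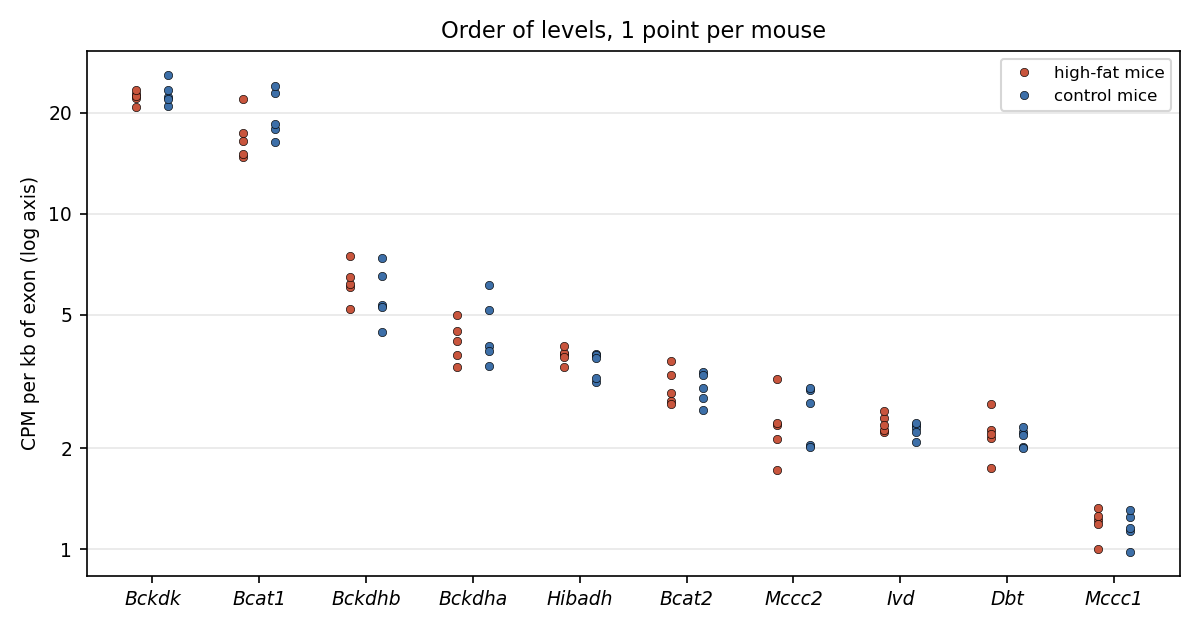
Level per kb of exon (log axis) of the 10 genes in order of their mean, 1 point per mouse, high-fat mice left and control mice right of each gene's centre. Bckdk and Bcat1 stand apart from the other 8 genes, whose means run between 1.18 and 6.04 CPM per kb.

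The other genes of the pathway were listed by role, 36 in all, of which 32 passed the filter. In edgeR 0 of the 32 had an adjusted p under 0.05, and 7 of the 32 had an unadjusted p under 0.05, 1 higher and 6 lower, against 5.45% higher and 6.62% lower over all genes. In DESeq2 1 of 32 passed with adjustment, against 2.29% of all genes, and in limma-voom 0, against 0.0349% of all genes. The adjusted share over all genes in edgeR was 0.0628%. Of the enzymes beyond the dehydrogenase, 15 were tested and 0 had an edgeR unadjusted p under 0.05, against 12.1% of all genes. With so few genes, 0 of 15 is not read as a result about these enzymes.

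**Figure D4:**
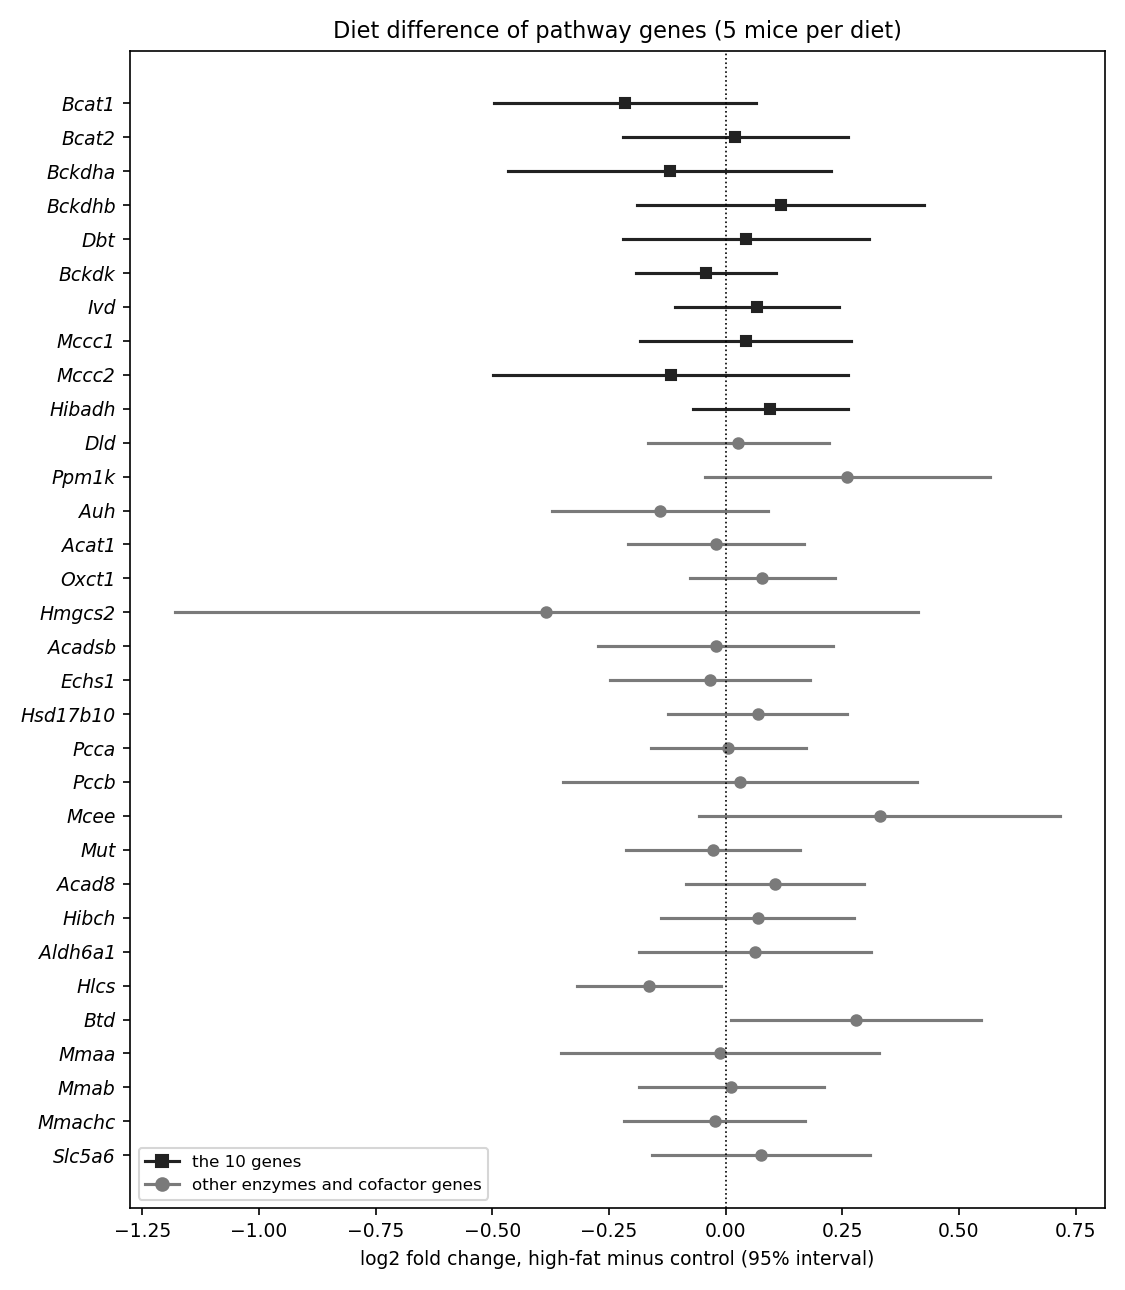
Log2 change (high-fat minus control, edgeR) with its 95% interval for the 10 genes (black squares) and for partners, enzymes and cofactor genes of the other lists (grey circles); a positive value means higher in high-fat mice. The intervals of all 10 genes include 0, and among the grey circles only those of Hlcs (-0.32 to -0.01) and Btd (0.01 to 0.55) do not.

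In the leucine route, Auh, which hydrates the carboxylase product, averaged 13.8 ± 1.25 CPM in high-fat and 15.2 ± 2.03 CPM in control mice. The isoleucine enzyme Acadsb averaged 30.2 ± 4.58 CPM in high-fat and 30.7 ± 3.65 CPM in control mice. Acadsb differed between the diets by less than the SD within either diet. The difference of Auh was below the SD within control mice but above that within high-fat mice. With the macrophage covariate the log2 change of Auh was -0.38 (edgeR unadjusted p = 0.0167, adjusted p = 0.221).

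Pcca and Pccb, the subunits of propionyl-CoA carboxylase, averaged 24.0 ± 1.84 and 18.1 ± 2.83 CPM in high-fat mice, against 24.0 ± 1.10 and 17.8 ± 4.77 CPM in control mice. The valine enzymes Acad8, Hibch and Aldh6a1 had log2 changes of 0.11 (SE 0.09), 0.07 (SE 0.10) and 0.06 (SE 0.11). Aldh6a1 shares 18.6% of its exon sequence with Bbof1 on the other strand, so its level is less certain. For the 7 enzymes named here from beyond the dehydrogenase, edgeR adjusted p-values without a covariate lay between 0.674 and 0.984.

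Mccc1 is one of the carboxylases that need biotin. Hlcs, the ligase that attaches biotin to them, was at 24.1, 27.1, 25.3, 25.4 and 22.9 CPM in high-fat mice 1 to 5, against 26.9, 28.7, 27.6, 27.0 and 29.6 CPM in control mice 1 to 5. High-fat mouse 2 alone reached into the control range, and the log2 change was -0.16 (SE 0.07, edgeR unadjusted p = 0.0378, adjusted p = 0.375). Btd, biotinidase, which frees biotin for reuse, averaged 33.9 ± 4.53 CPM in high-fat and 27.9 ± 4.79 CPM in control mice (log2 change 0.28, SE 0.12, edgeR unadjusted p = 0.0416, adjusted p = 0.385). Neither passed, and Btd was named after its value was seen.

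Among carriers of branched-chain amino acids and the heavy chain Slc3a2, 4 of the 6 tested had an edgeR unadjusted p under 0.05, against 12.1% of all genes. All 4 were lower in high-fat mice, against 6.62% of all genes. With the macrophage covariate, Slc7a8 and Slc43a2, which are among the 4, had an unadjusted p of 0.381 and 0.630 in edgeR. None of the 6 passed with adjustment in edgeR. Slc7a5, the large neutral amino acid transporter LAT1 of the plasma membrane, was at 449.9, 403, 362, 414 and 569.6 CPM in high-fat mice 1 to 5, against 606, 626, 425, 551 and 529.6 CPM in control mice 1 to 5. Control mice 3, 4 and 5 lay within the high-fat range, and high-fat mice 1 and 5 within the control range. The means were 439.7 ± 79.0 CPM in high-fat and 547 ± 78.8 CPM in control mice, and the log2 change was -0.32 (SE 0.13, edgeR unadjusted p = 0.0298, adjusted p = 0.343).

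Slc3a2, the heavy chain that brings Slc7a5 to the membrane, was at 414, 398, 354, 371 and 479 CPM in high-fat mice 1 to 5, against 535, 503, 378, 404 and 437 CPM in control mice 1 to 5. The diets overlapped, and the log2 change was -0.16 (SE 0.11, edgeR adjusted p = 0.619). Slc25a44, which carries branched-chain amino acids into mitochondria, averaged 53.3 ± 4.04 CPM in high-fat and 49.4 ± 5.09 CPM in control mice (edgeR adjusted p = 0.664). Slc6a15, a sodium-coupled carrier known from neurons, averaged 31.6 ± 2.67 CPM in high-fat and 40.5 ± 6.95 CPM in control mice, and only control mouse 4 lay within the high-fat range. Its log2 change was -0.36 (SE 0.12, edgeR adjusted p = 0.249), and it was named after its values were seen.

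The carriers Slc7a8 (LAT2) and Slc43a2 (LAT4) had low counts and the largest log2 changes among the pathway genes that passed the filter on low counts. Slc7a8 was at 0.298, 1.02, 0.427, 0.651 and 0.700 CPM in high-fat mice 1 to 5, against 3.56, 1.11, 7.40, 8.72 and 1.08 CPM in control mice 1 to 5. The diets did not overlap, but control mice 2 and 5 lay just above high-fat mouse 2. Its log2 change was -2.81 (SE 0.64, edgeR adjusted p = 0.164), while DESeq2 gave -2.82 with an adjusted p of 0.000439.

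Slc43a2 was at 1.55, 2.45, 1.89, 2.25 and 1.22 CPM in high-fat mice 1 to 5, against 3.32, 2.23, 6.12, 7.18 and 2.16 CPM in control mice 1 to 5. Control mice 1, 3 and 4 stood above every high-fat mouse and the others overlapped. For Slc43a2 the difference was -1.16 on the log2 scale (SE 0.35, edgeR adjusted p = 0.231), which did not pass. The same control mice 1, 3 and 4 had the highest macrophage marker sums, 150 (control mouse 1), 358 (control mouse 3) and 398 (control mouse 4) CPM over the 11 genes, against at most 67.9 CPM in any other library. With the macrophage level as a covariate the log2 change was -0.25 (SE 0.28, edgeR adjusted p = 0.727) for Slc7a8 and 0.14 (SE 0.29, edgeR adjusted p = 0.863) for Slc43a2. Without control mice 3 and 4 it was -1.61 (SE 0.47, edgeR adjusted p = 0.121) for Slc7a8 and -0.45 (SE 0.26, edgeR adjusted p = 0.440) for Slc43a2. Control mice 3 and 4 were the highest for both genes, so leaving them out had to shrink the changes. The macrophage level largely follows diet, so the covariate fit cannot tell diet and macrophage content apart.

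**Figure D5:**
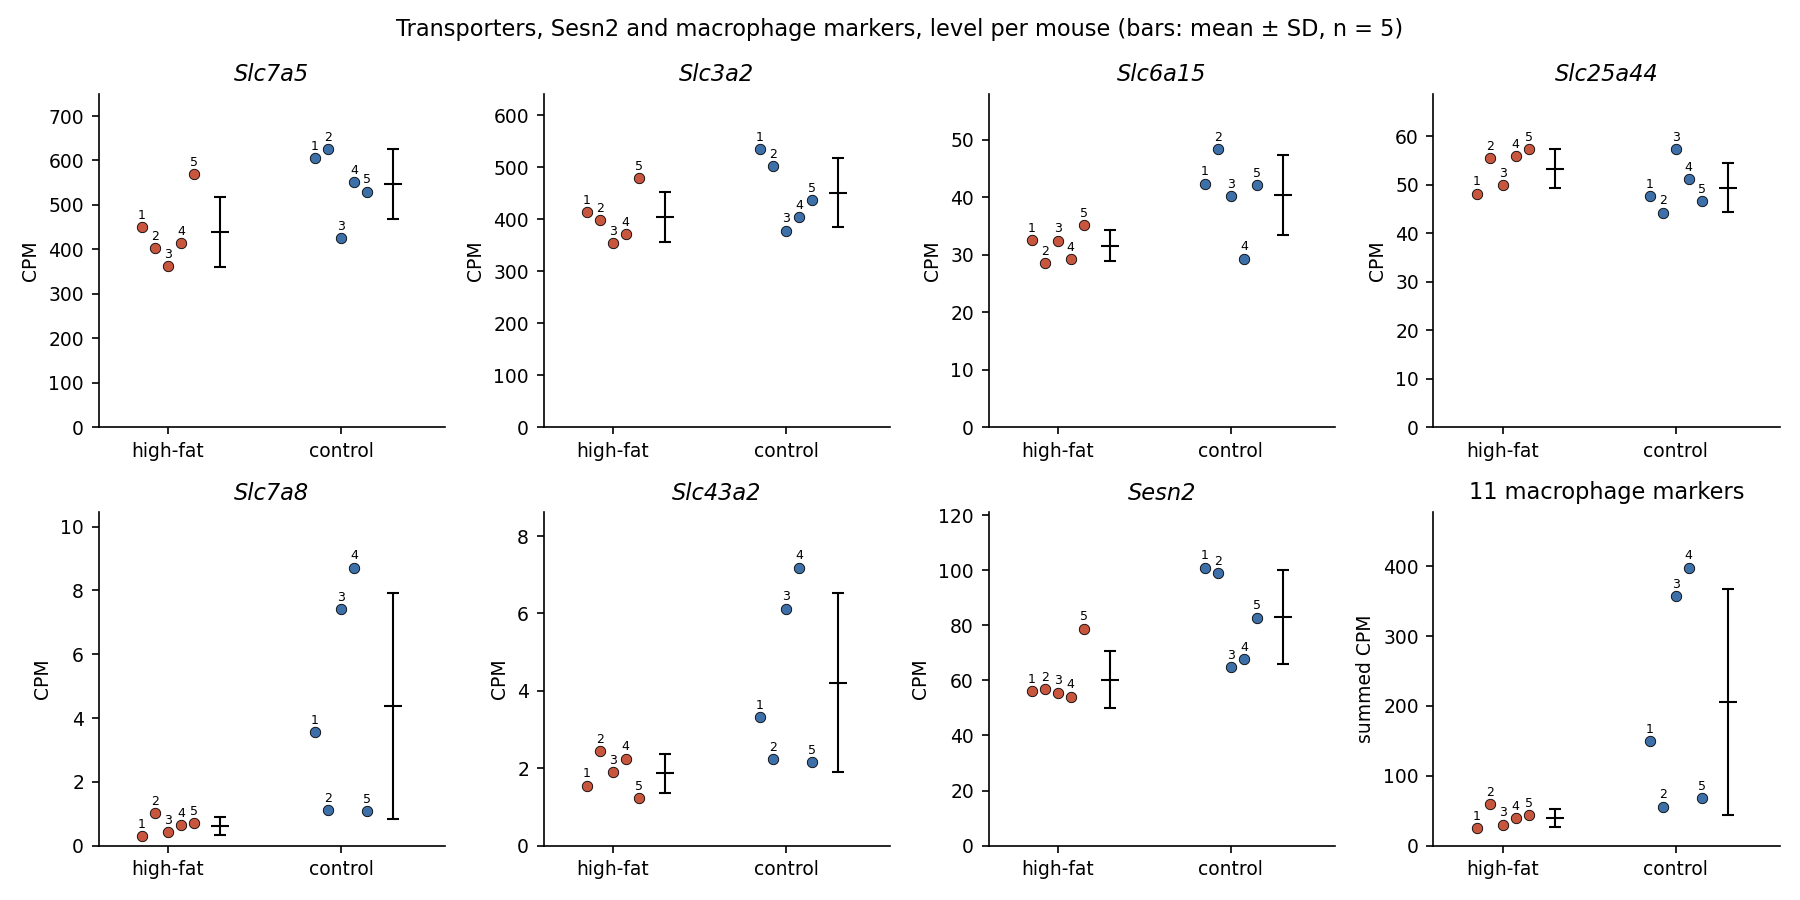
Level in CPM (axes start at 0) of carriers of branched-chain amino acids, of the heavy chain Slc3a2 and of Sesn2. Each point is 1 mouse with its number, high-fat mice left and control mice right, and bars give the mean ± SD of 5. The summed macrophage markers (without Mertk) stand beside them. Control mice 1, 3 and 4 are highest for Slc7a8 and Slc43a2 and for the macrophage sum, but not for Slc7a5.

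Of the regulators, Sesn2, a stress-induced protein that binds leucine and restrains mTORC1, was at 56.2, 56.8, 55.5, 54.1 and 78.8 CPM in high-fat mice 1 to 5, against 101, 98.9, 64.8, 67.6 and 82.7 CPM in control mice 1 to 5. High-fat mouse 5 alone lay within the control range. The log2 change was -0.46 (SE 0.15, edgeR adjusted p = 0.243), and the gene was named after its values were seen. Without control mice 3 and 4 it was -0.64 (SE 0.13, edgeR adjusted p = 0.0283), and that of Slc6a15 was then -0.49 (SE 0.09, edgeR adjusted p = 0.0253). For both genes these mice were the lowest controls, so leaving them out had to widen the difference. No diet effect is drawn from these passes. With the macrophage covariate, which includes Mertk, Sesn2 had -0.72 (SE 0.19, edgeR adjusted p = 0.0884) and Slc6a15 -0.64 (SE 0.14, edgeR adjusted p = 0.0370). That covariate largely follows diet, so in this fit diet and macrophage content cannot be told apart.

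Klf15, a transcription factor known to induce branched-chain amino acid catabolism in muscle and heart, did not pass the filter on low counts. It had 4, 0, 0, 0 and 0 counts in high-fat mice 1 to 5, against 7, 9, 3, 3 and 13 counts in control mice 1 to 5. A library with 0 counts allows up to 3 counts, which is between 0.175 and 0.183 CPM in those 4 high-fat libraries (counting error only).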

How the data were processed

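One library of polyadenylated RNA per mouse was made from sorted MC38 tumor cells of 5 high-fat-diet and 5 control-diet mice, and per the labels' protocols the kit was NEBNext Ultra RNA. The authors deposited raw counts per Ensembl gene, 1 column per mouse; 0 columns were left unmapped. BWA 0.7.12, cutadapt 1.15, DESeq2 1.24.0, FastQC 0.11.5 and build GRCm38 appear, without roles, per the submitters' processing notes. The counting program, annotation release and strand setting were not given in the sources used here, so reads of a gene and of an overlapping gene on the other strand cannot be told apart.

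Of 53379 identifiers, 53274 matched GENCODE M21 with the version ignored; symbols, coordinates and exon lengths came from there. Counts were fitted with edgeR 4.0.16 (R 4.3.3; filterByExpr, TMM, robust quasi-likelihood, diet as the only term, two-sided, high-fat minus control). The filter kept 14337 genes with 99.87% of the counts, and p-values were adjusted by Benjamini-Hochberg over them with a threshold of 0.05. Standard errors are the change over the square root of F, and 95% intervals use the fit's degrees of freedom. Levels are TMM-scaled CPM, and levels per kb divide by the summed exon length. A count of 3, taken as the floor, was between 0.158 and 0.183 CPM. Alternatives used DESeq2 1.42.0, limma 3.58.1 (voom), other scalings, filters and covariates, and fits with libraries left out. The fits were tested on simulated data. The sample titles number the mice 1 to 5 in either diet. The count columns number the high-fat mice onward from the control mice, so equal numbers were not taken as pairs.

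The 10 genes, the other lists and the tests were chosen with earlier results of these data known. Named were all 10 genes, 17 others by role (1 of them is not reported here), and any listed gene that passed; Slc6a15, Sesn2 and Btd were added after their values were seen. RefSeq promoter windows (GRCm38.p6) were found for 9 of the 10 genes, not for Dbt. No p-value was computed for ratios.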

Additional observations from a re-analysis of the deposited data

Results flagged for a closer look

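Of 66 groups of 5 libraries, 3 held a library far from the other 4 of its diet; chance flags about 1 group in 20. Dld stood at 147 CPM in high-fat mouse 5, against 108 to 116 CPM in the other high-fat mice. Auh stood at 16.0 CPM in high-fat mouse 1, against 13.0 to 13.5 CPM in the others. Sesn2 stood at 78.8 CPM in high-fat mouse 5, against 54.1 to 56.8 CPM in the others. None of the 10 genes had such a library.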

How the results depend on the processing

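The count of the 10 genes with an adjusted p under 0.05 was 0 in edgeR and under all 21 alternatives. Over all genes the count was 9 in edgeR, 53 with no filter, 316 in DESeq2 (106 higher, 210 lower), 5 in limma-voom, 16 with the replicate block, 0 with library size as a covariate (817 at an unadjusted p under 0.05), 227 with the macrophage covariate, 276 without control mice 3 and 4, and between 1 and 27 with 1 mouse left out. Higher calls were 6 of the 9 in edgeR. For the 32 other pathway genes the count was 0, but 1 in DESeq2 (Slc7a8) and 1 with the macrophage covariate (Slc6a15). It was 2 without control mice 3 and 4 (Slc6a15 and Sesn2), which were the lowest controls for both genes. The log2 change of Bcat1 lay between -0.44 and -0.14 over the alternatives, with adjusted p-values between 0.236 and 0.971. Among the genes whose changes the report gives, some signs turned. With the macrophage covariate these were Mccc1 at -0.084, Ivd at -0.026, Dld at -0.015, Hibch at -0.047 and Slc43a2 at 0.14. Mccc1 was at -0.11 with library size as a covariate, and at -0.00049 without control mice 3 and 4, where Acadsb was at 0.013. With 1 mouse left out, log2 changes ranged over -0.042 to 0.064 for Bcat2, -0.20 to 0.015 for Bckdha, -0.072 to 0.013 for Bckdk, -0.037 to 0.12 for Dbt, -0.014 to 0.10 for Mccc1, -0.071 to 0.068 for Acadsb, -0.0080 to 0.13 for Aldh6a1, -0.060 to 0.063 for Dld, -0.022 to 0.047 for Pcca and -0.083 to 0.13 for Pccb. The cause of these moves was not tested. Mice with the same number did not pair: their deviations correlated at 0.23, -0.36, 0.33, -0.07 and 0.15, and 1 of 5 matched its own number best. Dbt and Mccc2, with at most 158 counts per library, carry the widest counting error of the 10.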

Other observations

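The 3 highest libraries of Bcat1, those of high-fat mouse 5 and control mice 1 and 2, were, in another order for some, also the 3 highest of Slc7a5, Slc3a2 and Mmachc, a cobalamin-handling protein. That is 3 of the 41 other pathway genes tested, where 4.95% of all genes tested share these 3 libraries. The same libraries were the 3 lowest of Mccc2, Pccb and Sesn1, a relative of Sesn2, which is 3 of 41 where 2.73% of all genes tested do so. With so few genes these shares are a description, and nothing particular to the pathway is drawn from them. This pattern was noticed in the values and was not tested.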
